A study of Mus musculus with 18 samples.

Results

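The 62 clustered replication-dependent histone genes of the mouse were followed through 6 germ cell populations of the testis. They are all genes in the count table whose symbol begins with Hist1h, Hist2h, Hist3h or Hist4h, out of 46603 genes in all, without 3 pseudogenes and without the testis genes Hist1h1t, Hist1h2ba and Hist1h2aa. Hist1h2bm and Hist1h2bh were not analysed here. The set holds 5 H1, 17 H2A, 15 H2B, 12 H3 and 13 H4 genes. Of these, 49 lie in the Hist1 cluster on chromosome 13, 10 in the Hist2 cluster on chromosome 3, 2 in Hist3 on chromosome 11 and 1, Hist4h4, on chromosome 6 (GRCm38). RNA of sorted germ cells was sequenced in 18 libraries, 3 in each group. The groups, named by their labels, are Undiff.Spg and Diff.Spg, then PreL and LZ, then PD and RS; the abbreviations are not explained there. In this field Undiff.Spg and Diff.Spg usually name spermatogonia before and after the onset of differentiation, PreL preleptotene spermatocytes, LZ those in leptotene and zygotene, PD those in pachytene and diplotene, and RS round spermatids. All cells came from testes of adult male mice with the Stracre-GAG-tdTomato transgenes; the strain is given as C57BL/6 in one label and as C57BL/5 in the protocol. No source used here gives the sort gates, the number of animals or any pooling, and nothing says that replicates came from separate mice, so p-values measure the spread between these libraries, which may be technical. In bulk libraries like these, fewer cells of a type and less RNA per cell cannot be told apart.

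Replication-dependent histone genes supply the histones that package newly copied DNA, and in dividing cells their mRNA is made mainly in S phase. Their primary transcripts usually have no introns. The mRNA normally ends not in a poly(A) tail but just past a short stem-loop, which is bound by the stem-loop binding protein SLBP and cut with the help of the U7 snRNP, a small nuclear ribonucleoprotein. Many H2A and H2B genes lie head to head and share a promoter. Some of these genes can also give polyadenylated mRNA in cells that have left the cell cycle. In male germ cells the last S phase comes before meiosis, at the preleptotene stage, and testis histones later replace part of the somatic set.

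The stem-loop is shown because it sets this mRNA class apart from other mRNAs and because a library made from poly(A) RNA would miss mRNA that ends at it. The labels name total RNA as the extract and the series text speaks of mRNA; no source used here says whether poly(A) RNA was selected. The 16-base histone stem-loop motif stands in the annotated transcripts of 41 of the 62 members. It is found in 0.355% of all 21951 protein-coding genes of GENCODE M21. The paired arms of the stem are in capitals in these examples.
Hist1h1c: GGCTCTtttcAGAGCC
Hist2h2ac: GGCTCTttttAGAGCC
Hist1h4c: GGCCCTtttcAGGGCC
Hist1h4j: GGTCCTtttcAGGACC
The H4 genes Hist1h4c and Hist1h4j carry stems that differ from the H1 and H2A examples and from each other. No match was found in 21 members, among them Hist1h1a, Hist1h4a and Hist2h2be; for 13 of the 21 the annotation ends under 10 bases past the stop codon. In 20 members the annotated end lies more than 100 bases beyond the stem-loop, by 840 bases in Hist1h1c and by 1643 bases in Hist3h2a. Hist2h2be has 2195 annotated bases past its stop codon.

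The promoters of 5 members that carry the patterns described below are shown for the 150 bases before the RefSeq start (GRCm38.p6), read on the strand of the gene. Capitals mark any of these motifs on either strand: the CCAAT box, the TATA box with the letters TATAAA, the octamer ATTTGCAT, the cAMP response element TGACGTCA with its shorter form TGACG, the H1 box with the letters AAACACA, and the MYB core with the letters CAACTG. The shorter form also lies within the full element. Hist1h1a is at chr13:23763518-23763667 (+), Hist1h1c at chr13:23738657-23738806 (+), Hist2h2ac at chr3:96220881-96221030 (-), Hist3h2a at chr11:58954535-58954684 (+) and Hist1h4a at chr13:23761250-23761399 (-).
Hist1h1a: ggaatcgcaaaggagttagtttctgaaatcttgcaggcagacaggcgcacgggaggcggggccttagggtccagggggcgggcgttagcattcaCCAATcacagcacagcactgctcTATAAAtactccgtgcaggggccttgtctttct
Hist1h1c: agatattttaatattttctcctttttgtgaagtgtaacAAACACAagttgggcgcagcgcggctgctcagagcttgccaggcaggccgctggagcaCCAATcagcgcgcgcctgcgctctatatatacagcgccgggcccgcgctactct
Hist2h2ac: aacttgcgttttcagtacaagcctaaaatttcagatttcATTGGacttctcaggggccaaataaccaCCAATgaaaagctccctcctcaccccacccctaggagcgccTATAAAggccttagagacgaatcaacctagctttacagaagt
Hist3h2a: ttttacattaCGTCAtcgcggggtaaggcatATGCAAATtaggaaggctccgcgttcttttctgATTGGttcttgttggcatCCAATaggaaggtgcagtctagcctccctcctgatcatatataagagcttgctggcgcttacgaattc
Hist1h4a: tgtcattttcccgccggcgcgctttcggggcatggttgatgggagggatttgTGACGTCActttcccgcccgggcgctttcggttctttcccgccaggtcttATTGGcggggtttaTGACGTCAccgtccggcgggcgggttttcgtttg
RefSeq gave promoters for 57 members, and the motifs were counted in the 300 bases around each start (250 before it and 50 after). CCAAT stood in 84.2% of the members' promoters and in 37.4% of all 32851 promoters, and TATAAA in 57.9% against 13.6%. Only 25.0% of H4 promoters held CCAAT, against every H1, H2A, H2B and H3 promoter. The octamer was found in 17.5% of members, all of them H2A or H2B genes, against 1.7% of all promoters. TGACG stood in 47.4% of members against 20.8% of all promoters, with none in the 5 H1 promoters. The full TGACGTCA was found in 4 members (7.0%, against 1.8%), and Hist1h4a has it at 2 places. The H1 box stood in 4 of the 5 H1 promoters, all but that of Hist1h1a, and in 8.8% of members against 7.2% of all promoters. CAACTG stood in 17.5% of members against 13.7% of all promoters. These counts describe letters in the windows and were not tied to the binding of any factor.

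Few reads came from these genes. Levels are given as CPM, that is, counts relative to the library total after TMM adjustment, and the 62 members together took 152 to 1272 reads per library, or 0.0012% to 0.00919% of totals that ran from 11777947 to 16607462. No read was counted in any library for 10 members (Hist1h2ao, Hist1h2ap, Hist1h2bq, Hist1h2br, Hist1h4m, Hist2h2aa1, Hist2h2aa2, Hist2h2bb, Hist2h3b and Hist2h3c1). Little of their sequence is unique: 0.0% to 11.3% of their 50-base stretches are found in no other annotated gene. For Hist2h2aa1, Hist2h2aa2, Hist2h2bb, Hist2h3b and Hist2h3c1 another annotated gene covers the whole exon length, which also lowers this share. Hist2h2bb shares stretches with only 2 genes and is overlapped by 2, Gm20628 and Gm42743. Among the 35 members with reads that were too low to test, that share had a median of 42.0%, and among the 17 tested members it was at least 28.5%, with a median of 68.5%. A low or absent count of a member with little unique sequence therefore does not show that the gene was silent, and levels of such members are uncertain. Unique sequence alone did not go with reads: Hist1h1b, an H1 gene whose stretches are all unique, had 1 read in all 18 libraries. Of the 17 tested members 8 are annotated past the stem-loop, against 11 of the 35 untested ones with a read and 1 of the 10 without. These counts need a match to the stem-loop motif and so miss members with a long annotated end but no match. Among these are the tested Hist2h2be, with 2195 bases past the stop codon. Hist1h2bq and Hist1h2br, which had no reads, have up to 1611 and 1806 such bases.

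**Figure D1:**
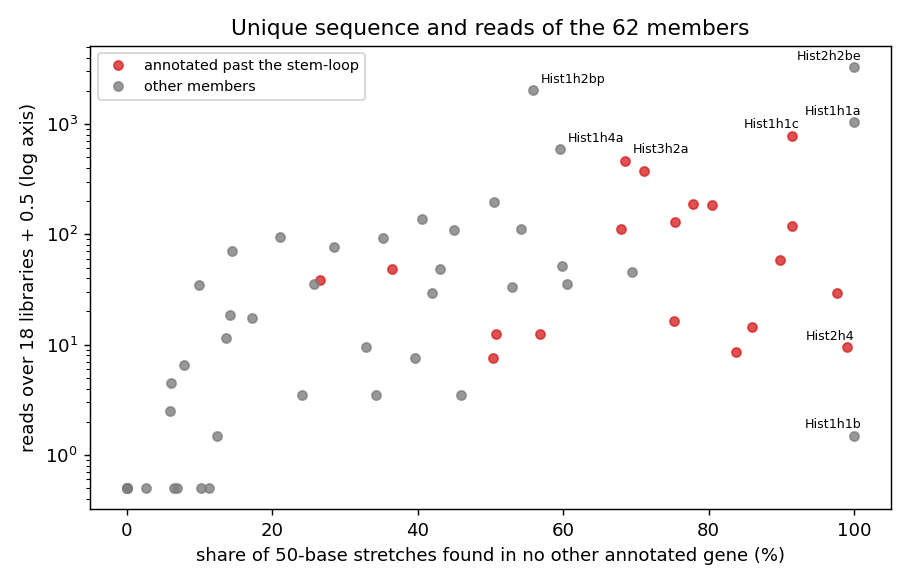
Each point is 1 of the 62 members, with the share of its 50-base stretches found in no other annotated gene (%, x axis) and its reads over all 18 libraries plus 0.5 (y axis, log scale); red points are annotated more than 100 bases past the stem-loop. The 10 members with no read lie at 11.3% unique stretches or below, while Hist1h1b, at the right edge, had 1 read.

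The libraries were checked against marker genes of each stage. Markers of undifferentiated spermatogonia, of LZ, of PD and of RS were each highest in summed CPM in the group that bears the name. Within these lists, Id4 of the Undiff.Spg list averaged 112.5 CPM in PD against 50.6 CPM in Undiff.Spg. Ccna1 of the PD list averaged 436.7 CPM in RS against 359.5 CPM in PD. The 4 preleptotene markers (Stra8, Meioc, Rec8 and Gm4969) did not follow their label: their sum was 2670 to 2890 CPM in the LZ libraries, against 773 to 963 CPM in the PreL libraries, and Stra8 alone averaged 327 CPM in Diff.Spg, 190 CPM in PreL and 1053 CPM in LZ. The 4 markers of differentiating spermatogonia summed higher in PD (1740 CPM) than in Diff.Spg (1410 CPM), but Dmrtb1 alone averaged 1736 CPM in PD. The other markers, Kit, Sohlh1 and Stra8, averaged 589, 100 and 327 CPM in Diff.Spg and 2.61, 0.252 and 0.430 CPM in PD. Among the 3 libraries of a group, PreL replicate 2 and LZ replicate 2 held the most PD marker RNA, with sums of 101 to 368 CPM over the PreL libraries and 181 to 479 CPM over the LZ libraries, against 11000 to 12200 CPM in PD. PreL replicate 3 stood above the other PreL libraries in total member CPM (35.2, with a lowest PreL library of 16.1). The 6 Sertoli cell markers summed to 25.7 to 29.4 CPM in Undiff.Spg, 16.2 to 19 CPM in Diff.Spg, 3.18 to 5.49 CPM in PreL, 8.29 to 15.9 CPM in LZ, 0.683 to 1.27 CPM in PD and 0.312 to 0.862 CPM in RS. The part of other cells in the results was not tested.

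Summed over all 62 members, the level stood at 11.0 ± 1.07 CPM in Undiff.Spg, 12.8 ± 1.18 in Diff.Spg, 22.6 ± 11 in PreL, 47.9 ± 9.84 in LZ, 109 ± 8.98 in PD and 105 ± 8.5 in RS (mean ± SD, n = 3 each). The make-up of the sum differed between PD and LZ. H1 genes, which encode the linker histones, stood at 11.2 ± 5.11 CPM in PreL, 26.0 ± 4.24 CPM in LZ, 0.124 ± 0.139 CPM in PD and 0.273 ± 0.287 CPM in RS. H2B genes made up most of the sum in the later groups, with 88.8 ± 9.67 CPM in PD and 78.0 ± 6.35 CPM in RS, after 2.31 to 5.44 CPM on average in the 4 earlier groups. H2A genes were highest in PD at 15.5 ± 1.39 CPM, and H3 genes in RS at 3.94 ± 0.653 CPM. H4 genes had 2 high groups, LZ with 13.1 ± 3.45 CPM and RS with 17.8 ± 2.14 CPM, and 3.48 ± 1.07 CPM in PD between them. Single genes gave most of some of these sums. Hist2h2be averaged 81.4 CPM of the H2B sum in PD and Hist1h2bp 58.7 CPM of that in RS, and Hist1h4a 16.5 CPM of the H4 sum in RS. These sums carry no test.

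**Figure D2:**
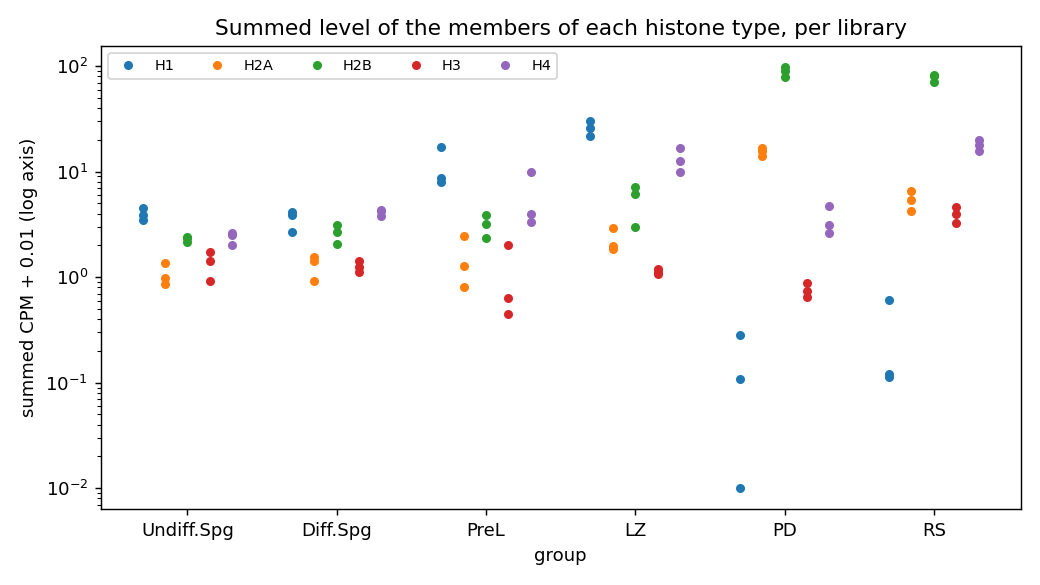
Points show the summed CPM (plus 0.01, log axis) of the members of each histone type in each of the 18 libraries, by group in the order of the stages. H1 genes lie at 0 to 0.274 CPM in PD and at 21.8 to 30.2 CPM in LZ, while H2B genes lie at 78.9 to 98.2 CPM in PD and at 2.99 to 7.18 CPM in LZ.

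Of the 62 members 17 passed the filter on low counts, and they held 91.5% of all member reads. The other 45 reached at most 1.61 CPM in any group. All 17 differed among the 6 groups at an adjusted p under 0.05 (edgeR), as did 99% of all 18547 genes tested, so this count says little about histone genes. By the group with the highest mean, 9 of the 17 were highest in LZ, 4 in PD, 3 in RS and 1 in Diff.Spg, with none in Undiff.Spg or PreL. The 9 of LZ summed to 0.777 ± 0.0437 CPM in PD, against 37.3 ± 7.21 CPM in LZ. The 4 of PD summed to 96.7 ± 10.3 CPM there and to 1.29 ± 1.08 CPM in LZ. The 3 of RS summed to 77.6 ± 13.8 CPM there and to 8.64 ± 1.4 CPM in PD. These sets were drawn from the means themselves and are a description.

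**Figure D3:**
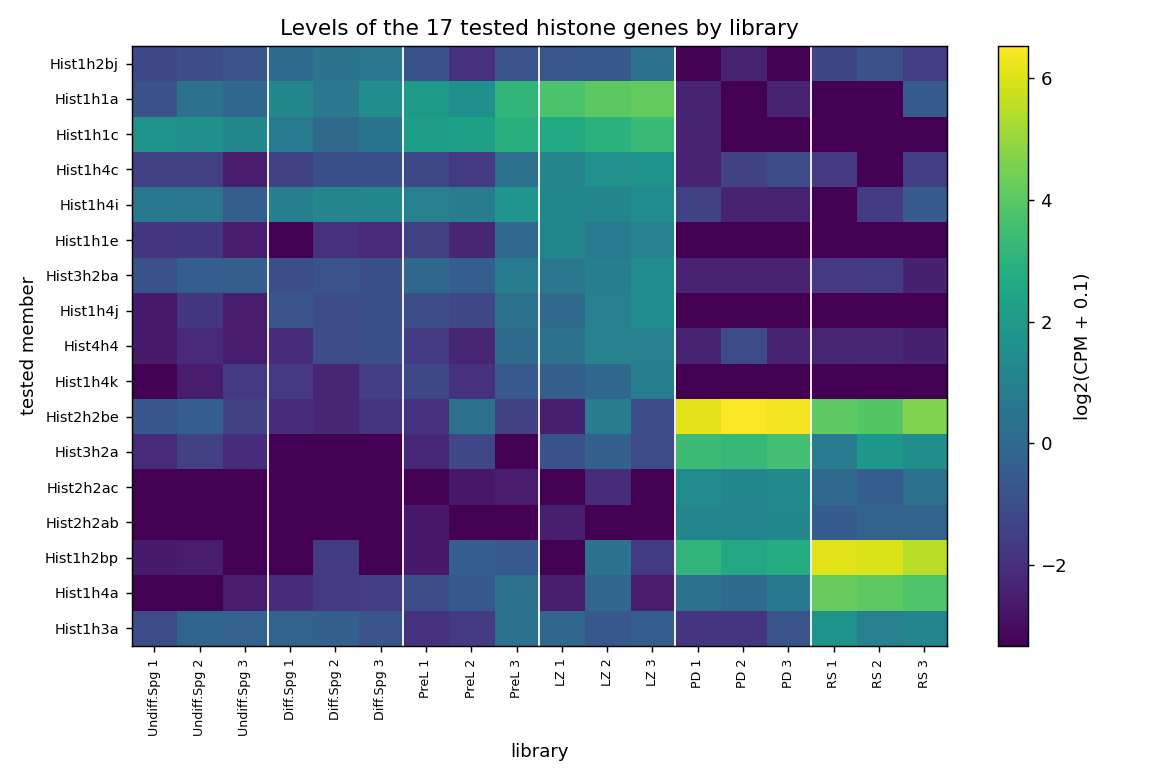
The colour gives log2(CPM + 0.1) of each of the 17 tested members (rows, ordered by the group with their highest mean) in each of the 18 libraries (columns, in the order of the stages). The 9 members highest in LZ are dark in PD and RS, where 3 of them have no read in any library, and the 7 below them are bright in PD, in RS or in both.

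Levels per kilobase of annotated exon adjust for annotated length only. They count any annotated end past the stem-loop and do not adjust for shared sequence, so the order is rough. On this scale Hist1h2bp stood highest with a mean of 83.1 CPM per kb in RS. Hist2h2be followed with 31.1 CPM per kb in PD, Hist1h4a with 30.7 in RS, Hist1h1a with 21.1 in LZ and Hist1h1c with 5.19 in LZ. Hist3h2a (5.02 in PD), Hist2h2ab (4.83 in PD), Hist2h2ac (4.60 in PD), Hist1h3a (4.47 in RS) and Hist1h4k (3.60 in LZ) completed the 10 highest, and the last 5 of the 10 lie close together.

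Few members were called between the spermatogonial groups. In Diff.Spg against Undiff.Spg 1 member was higher and 2 were lower of 17 (20.4% and 23% of all genes tested), with a median log2 fold change of 0.75 over the 17 and 0 over all genes. Hist1h1c had 1.54, 0.971 and 1.31 CPM in Diff.Spg, against 3.19, 2.95 and 2.22 CPM in Undiff.Spg. All Diff.Spg libraries lay below all Undiff.Spg libraries, and the fall of 1.14 ± 0.33 on the log2 scale (SE) had an adjusted p of 0.0105 (edgeR); without Diff.Spg replicate 2 this call was lost (adjusted p = 0.0567). Hist1h2bj, an H2B gene, rose, with 0.981, 1.29 and 1.43 CPM in Diff.Spg against 0.326, 0.403 and 0.486 CPM in Undiff.Spg, groups that did not overlap (log2 fold change 1.60 ± 0.41, adjusted p = 0.00404). Its divergent neighbour, the H2A gene Hist1h2ag, whose start lies 270 bases away, averaged 0.665 CPM in Diff.Spg and 0.291 CPM in Undiff.Spg and was too low to test. The fall of Hist3h2a rested on 0 reads in Diff.Spg against 8 in Undiff.Spg, at least 2.92-fold lower when the Diff.Spg group is set at a floor of 3 reads (adjusted p = 0.0215), and was lost without Undiff.Spg replicate 2, Diff.Spg replicate 2 or Diff.Spg replicate 3 (highest adjusted p over all alternatives 0.0667).

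In PreL against Diff.Spg 2 of the 3 tested H1 genes rose. Of 17 tested members 4 were higher and 1 lower (20.4% and 24.8% of all genes), and the share that was higher lay near that of all genes. The median log2 fold change was 1.28 against 0.02 over all genes. Hist1h1c had 4.38, 4.83 and 7.14 CPM in PreL, against 1.54, 0.971 and 1.31 CPM in Diff.Spg. The groups were well apart (log2 fold change 2.10 ± 0.32, adjusted p = 8.42e-05), and the call held in all 27 alternatives. Hist1h1a, a linker histone gene, had 4.03, 2.96 and 8.70 CPM in PreL against 2.24, 1.46 and 2.74 CPM in Diff.Spg. All PreL libraries were higher, but PreL replicate 3 stood far above the other 2. The log2 fold change of 1.28 ± 0.45 (adjusted p = 0.0303) became 0.71 with an adjusted p of 0.186 at its weakest among the alternatives, and the call was lost without PreL replicate 3, without Diff.Spg replicate 1 or without Diff.Spg replicate 2. Hist3h2ba, an H2B gene, averaged 1.09 ± 0.551 CPM in PreL and 0.447 ± 0.034 CPM in Diff.Spg (log2 fold change 1.23 ± 0.39, adjusted p = 0.0159), a call lost without PreL replicate 3, Diff.Spg replicate 1 or Diff.Spg replicate 3 and with DESeq2. Hist3h2a had 8 reads in PreL and 0 in Diff.Spg, at least 2.41-fold higher (adjusted p = 0.0263). The PreL and Diff.Spg libraries of Hist3h2a overlapped at 0, and the call was lost without PreL replicate 2 or without any single Diff.Spg library (highest adjusted p 0.140). Hist1h2bj averaged 0.373 ± 0.182 CPM in PreL against 1.24 ± 0.231 CPM in Diff.Spg, a fall of 1.74 ± 0.41 on the log2 scale (adjusted p = 0.00223). None of the 6 tested H4 genes was called in this step.

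In LZ against PreL 7 members were higher, H1 and H4 genes above all, and none was lower. By type they were 2 of 3 H1, 4 of 6 H4 and 1 of 4 H2B genes, with 0 of 3 H2A and 0 of 1 H3. Of all genes 24.3% were higher and 23.2% lower, and the median log2 fold change was 0.85 over the 17 and 0 over all genes. At an unadjusted p under 0.05 no member was lower either (edgeR), while DESeq2 called 1. Hist1h1a had 13.1, 16.3 and 17.5 CPM in LZ, against 4.03, 2.96 and 8.70 CPM in PreL. All LZ libraries were higher than all PreL libraries (log2 fold change 1.59 ± 0.42, adjusted p = 0.00427), and this call held in all 27 alternatives. It took 30.6% to 34.8% of all member reads in the LZ libraries. Sertoli cell markers moved the same way in this step, with 4 of 6 higher and 0 lower, and their part in these results was not tested.

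Hist1h1c had 6.20, 7.67 and 10.4 CPM in LZ, against 4.38, 4.83 and 7.14 CPM in PreL; the groups overlapped and it was not called (log2 fold change 0.58 ± 0.28, adjusted p = 0.101). Hist1h1e, the other linker histone gene that could be tested, had 2.22, 1.62 and 1.98 CPM in LZ, against 0.284, 0.110 and 0.928 CPM in PreL. It rose by 2.21 ± 0.54 on the log2 scale (adjusted p = 0.00453), with 496 of its bases shared with Hist1h2be on the same strand, which had 0.0704 CPM on average in LZ. Hist1h1d averaged 0.291 CPM in LZ and 0.119 CPM in PreL and was too low to test, as was Hist1h1b. Among the H4 genes, Hist1h4c had 2.15, 3.10 and 3.15 CPM in LZ, against 0.341, 0.220 and 1.14 CPM in PreL. The LZ libraries of Hist1h4c all lay above those of PreL (log2 fold change 2.36 ± 0.47, adjusted p = 0.000529).

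Hist4h4, the H4 gene on chromosome 6, rose as well and averaged 1.68 ± 0.397 CPM in LZ and 0.445 ± 0.483 CPM in PreL (log2 fold change 1.997 ± 0.51, adjusted p = 0.00389). It was not called when PreL replicate 2 and LZ replicate 2 were both left out (1.37) or when the pair of groups was fitted alone. Hist1h4k averaged 1.12 ± 0.565 CPM in LZ and 0.359 ± 0.204 CPM in PreL (log2 fold change 1.67 ± 0.55, adjusted p = 0.0226), and Hist1h4j 1.80 ± 0.861 CPM in LZ and 0.647 ± 0.492 CPM in PreL (1.53 ± 0.50, adjusted p = 0.0216). Neither of the last 2 was called without PreL replicate 1, PreL replicate 2 or LZ replicate 3, with the pair of groups fitted alone, or by DESeq2, and Hist1h4j was also not called without PreL replicate 2 and LZ replicate 2 together. Hist3h2ba was called narrowly (log2 fold change 0.85 ± 0.33, adjusted p = 0.0440) and lost in 23 of 27 alternatives. Hist1h4i was not called, at 2.35 ± 0.268 CPM in LZ and 2.33 ± 0.949 CPM in PreL (log2 fold change 0.03 ± 0.38). PreL replicate 3 had the highest PreL value of every one of the 7: without it the log2 fold change was 3.24 for Hist1h1e, 3.28 for Hist1h4c, 2.28 for Hist1h4j and 3.25 for Hist4h4, and 11 members were called higher.

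**Figure D4:**
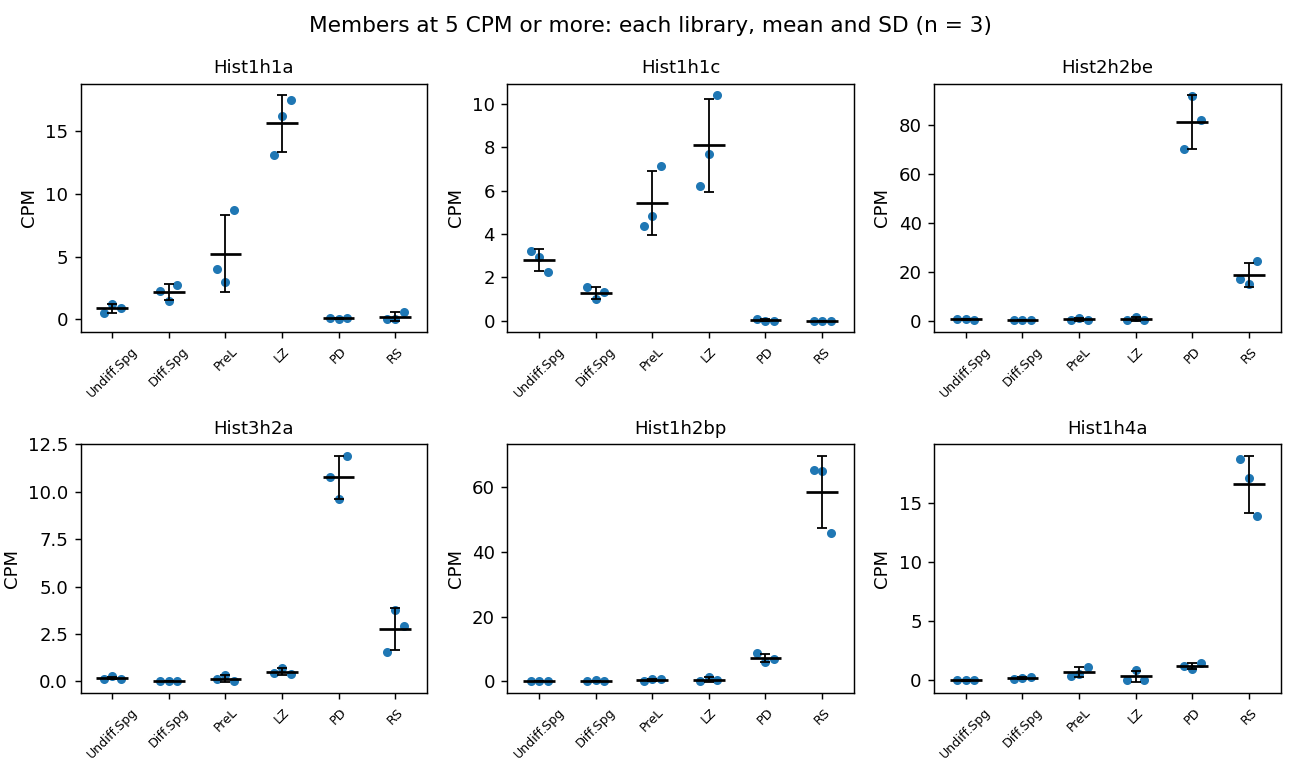
CPM in each of the 3 libraries of a group (points), with the mean (thick line) and SD (bar), for the 6 members that reached 5 CPM in a group, in the order of the stages. Hist1h1a and Hist1h1c are highest in LZ, Hist2h2be and Hist3h2a in PD, and Hist1h2bp and Hist1h4a in RS; each panel has its own scale.

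In PD against LZ 16 of the 17 tested members were called, 6 higher and 10 lower (42.1% and 40.8% of all genes). A member could pass the low-count filter through its reads in 1 group alone, which itself favours calls against groups where it is low. Hist2h2ab, for example, had at most 1 read in any library before PD and 23 reads in each PD library. The median log2 fold change was -3.44 over the 17 and 0 over all genes. All 3 tested H1 genes fell, as did 5 of 6 H4 genes and 2 of 4 H2B genes, while all 3 tested H2A genes, 2 H2B genes and 1 H4 gene rose. The 3 H2A genes, Hist2h2ab, Hist2h2ac and Hist3h2a, do not stand for all 17 of that type. No untested H2A gene averaged higher in PD than in LZ. Hist1h2ak had 0.440 CPM in LZ and 0.0935 CPM in PD, and Hist1h2ai 0.346 and 0 CPM. Hist1h1a had 0.0914, 0 and 0.0976 CPM in PD, against 13.1, 16.3 and 17.5 CPM in LZ, or 2 reads against 641. The log2 fold change was -7.78 ± 0.78 (adjusted p = 7.29e-08). Hist1h1c was down to 1 read in the 3 PD libraries, against 332 reads in LZ (log2 fold change -7.66 ± 0.58, adjusted p = 8.83e-09), and had no read in RS. Of the 6 Sertoli cell markers 5 were lower and 0 higher in this step (Gata4 had 0 CPM in every PD library), and their part in these falls was not tested.

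Of the other members that fell, 3 had no read in any PD or RS library. With the PD group set at a floor of 3 reads (0.0932 CPM), Hist1h1e was at least 20.8-fold lower in PD than in LZ, Hist1h4j at least 19.3-fold and Hist1h4k at least 12.0-fold (adjusted p = 4.86e-05, 4.25e-05 and 0.000148). Hist1h4n, an untested H4 gene, showed the same absence, with 0 reads in PD and an average of 1.18 CPM in LZ. The smaller falls were those of Hist3h2ba (log2 fold change -4.24 ± 0.54), Hist1h2bj (-4.21 ± 0.77), Hist1h4i (-3.84 ± 0.62), Hist1h4c (-3.45 ± 0.58) and Hist4h4 (-3.11 ± 0.65). Each of the 10 falls was called in all alternatives in which it could be fitted. Without PD replicate 2, Hist1h2bj stood at -6.37 and Hist4h4 at -4.20, and without PD replicate 1, Hist1h1c stood at -9.81 and Hist1h4i at -4.67; without PD replicate 3, Hist1h4c stood at -4.06.

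Hist2h2be, which encodes the H2B variant known as H2BE in mouse olfactory neurons, had 70.0, 91.9 and 82.1 CPM in PD, against 0.0766, 1.69 and 0.367 CPM in LZ. The lowest PD library was far above the highest LZ library, LZ replicate 2 (log2 fold change 6.79 ± 0.51, adjusted p = 1.92e-09). Without LZ replicate 2 it was 8.44. This gene alone gave 71.1% to 79.5% of all member reads in the PD libraries. It shares its promoter region with Hist2h2ac, printed above, whose start lies 239 bases away on the other strand, and Hist2h2ab follows 52 bases beyond Hist2h2ac.

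The pair of H2A genes beside it moved in the same direction. Hist2h2ac had 2.56, 2.18 and 2.44 CPM in PD, against 0, 0.141 and 0 CPM in LZ (log2 fold change 5.37 ± 0.62, adjusted p = 3.1e-06), and Hist2h2ab had 2.10, 2.09 and 2.24 CPM in PD, against 0.0766, 0 and 0 CPM in LZ (6.00 ± 0.61, adjusted p = 8.57e-07). Their LZ values rest on 2 reads and 1 read, so the fold changes are loose: without LZ replicate 2 that of Hist2h2ac was 8.04, without LZ replicate 1 that of Hist2h2ab was 7.88, and without LZ replicate 3 they were 4.68 and 5.37. The 3 genes lie within 3874 bases on chromosome 3, with no other member between them, and were the 3 tested Hist2 members. Hist2h2ab overlaps the antisense gene Gm15444 over 303 bases, and Gm15444 was counted at 0.871 CPM in PD and 0.0235 CPM in LZ. The strand setting of the counting is not given, so reads of Hist2h2ab and Gm15444 cannot be told apart.

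Hist3h2a, the H2A gene of the Hist3 cluster, had 10.8, 9.64 and 11.9 CPM in PD, against 0.460, 0.704 and 0.367 CPM in LZ. The groups did not come near each other (log2 fold change 4.37 ± 0.43, adjusted p = 1.7e-07). Its divergent neighbour, the left-out pseudogene Hist3h2bb-ps with a start 173 bases away, also rose, to 2.90 ± 0.454 CPM in PD against 0.315 ± 0.0981 CPM in LZ (log2 fold change 3.15 ± 0.43, adjusted p = 3.32e-06). Hist3h2a overlaps Trim17 over 708 bases on the same strand, and Trim17 averaged 48.6 CPM in PD and 3.60 CPM in LZ, and no source used here says how reads of the shared stretch were assigned. In RS against PD, Trim17 rose (274.9 CPM in RS, 48.6 CPM in PD) where Hist3h2a fell.

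Hist1h2bp, an H2B gene of the Hist1 cluster with a spliced transcript in the annotation, had 8.593, 6.002 and 6.829 CPM in PD, against 0, 1.27 and 0.22 CPM in LZ (log2 fold change 3.78 ± 0.60, adjusted p = 1.71e-05). Every PD library was higher, and without LZ replicate 2 the log2 fold change was 5.88. Hist1h4a had 1.19, 1.0 and 1.46 CPM in PD, against 0.0766, 0.845 and 0.0734 CPM in LZ (log2 fold change 1.81 ± 0.61, adjusted p = 0.0119). Its highest LZ library was again replicate 2; without that library the value was 3.86, and without LZ replicate 1, LZ replicate 3 or PD replicate 3 the call was lost (1.16 without LZ replicate 3). PD markers were also highest in LZ replicate 2, while RS markers summed to 91.9 CPM in LZ replicate 1 and 34.1 CPM in LZ replicate 2. The RS markers differed among themselves. Tnp1, Tnp2, Prm1 and Prm2 had most reads in LZ replicate 1 (Prm2 had 419, 43 and 52 in LZ replicates 1, 2 and 3). Acrv1 (14, 131 and 17 reads) and Spaca1 (39, 105 and 53) had most in LZ replicate 2. The part of PD and RS cells in these LZ values was not tested. Hist1h3a was not called in this step (log2 fold change -1.26 ± 0.70, adjusted p = 0.103).

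In RS against PD 4 members were higher and 4 lower of 17, near the shares of all genes (30.3% and 28.6%). The median log2 fold change was 0 for the members and for all genes. The 4 that fell were the 4 that stood highest in PD, which that choice itself favours. Hist2h2be had 16.9, 14.97 and 24.3 CPM in RS, against 70.0, 91.9 and 82.1 CPM in PD, without overlap (log2 fold change -2.12 ± 0.37, adjusted p = 9.91e-05). Hist3h2a had 1.56, 3.74 and 2.93 CPM in RS, against 10.8, 9.64 and 11.9 CPM in PD (-1.97 ± 0.36, adjusted p = 0.000206). Hist2h2ab fell by 1.55 ± 0.37 and Hist2h2ac by 1.33 ± 0.40 on the log2 scale (adjusted p = 0.00283 and 0.0122). Both calls were lost with DESeq2, with adjusted p of 0.0548 for Hist2h2ab and 0.0952 for Hist2h2ac, and that of Hist2h2ac also without RS replicate 2.

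The 4 that rose were Hist1h2bp, Hist1h4a, Hist1h3a and Hist1h2bj. Hist1h2bp had 65.3, 65.0 and 45.8 CPM in RS, against 8.593, 6.002 and 6.829 CPM in PD. The RS libraries all stood above the PD libraries (log2 fold change 3.04 ± 0.43, adjusted p = 1.01e-05), and the gene gave 47.8% to 59.6% of all member reads in RS. The start of its divergent neighbour, the H2A gene Hist1h2an, lies 243 bases away; Hist1h2an had no read in RS and 1 read in PD, with 14.2% unique stretches. Hist1h4a, the H4 gene with 2 TGACGTCA elements in the promoter printed above, had 18.6, 17.1 and 13.9 CPM in RS, against 1.19, 1.0 and 1.46 CPM in PD (log2 fold change 3.76 ± 0.43, adjusted p = 1.24e-06). It gave 14.5% to 16.7% of member reads in RS.

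Hist1h3a had 3.23, 1.87 and 2.07 CPM in RS, against 0.183, 0.182 and 0.488 CPM in PD (log2 fold change 3.05 ± 0.61, adjusted p = 0.000359), and no PD library reached the lowest RS library. Hist1h4a and Hist1h3a are neighbours, 622 bases apart, and Hist1h1a lies 1279 bases beyond Hist1h3a. Hist1h1a, with 7 reads in RS and 2 in PD, was not called (adjusted p = 0.341). Hist1h2bj rose on few reads, 10 in RS against 1 in PD (log2 fold change 3.08 ± 0.93, adjusted p = 0.00843). Without PD replicate 2, which held the 1 read, its value was 5.00.

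The 45 untested members stayed at or below 1.61 CPM in every group. The most reads among them were those of the H4 gene Hist1h4h, with 1.61 ± 0.868 CPM in PD and 0.467 ± 0.129 CPM in LZ, unlike the 5 tested H4 genes that fell in this step. Other untested members were lower in PD. Hist1h4d averaged 0.829 CPM in LZ and 0 CPM in PD, Hist1h2bb 0.710 and 0.0628 CPM, and Hist1h4f 0.537 and 0.0325 CPM. Without the low-count filter more members were called lower in PD against LZ than with it. The H3 genes were the least represented type, with 1 of 12 tested; Hist2h3c2, the H3 gene with the next highest level, averaged 0.642 ± 0.202 CPM in RS and 0.434 ± 0.0379 CPM in PD. Hist2h4, an H4 gene with 99.0% unique stretches, had 9 reads in the 18 libraries.

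Genes that act on histone mRNA were set beside the members. Npat, which drives transcription of these genes in S phase, rose to 375.5 ± 37.6 CPM in LZ, against 170.7 ± 10.2 CPM in PreL (log2 fold change 1.14 ± 0.11, adjusted p = 4.82e-07), and fell to 59.1 ± 7.55 CPM in PD, against 375.5 CPM in LZ (-2.67 ± 0.12, adjusted p = 2.42e-12). Casp8ap2, a factor of histone mRNA 3-prime processing, stood at 143 ± 23.6 CPM in PreL, 271 ± 12.1 CPM in LZ and 11.7 ± 4.28 CPM in PD; its changes were 0.92 ± 0.19 in LZ against PreL and -4.53 ± 0.23 in PD against LZ (adjusted p = 0.00074 and 8.89e-12). Zfp473, a zinc finger protein that acts with SLBP and the U7 snRNP, had 50.3 ± 11.4 CPM in LZ and 6.92 ± 1.23 CPM in PreL (2.86 ± 0.20, adjusted p = 2.3e-08). These rises came in the same step as those of the H1 and H4 members, but other such genes did not share them. Of 17 genes of histone mRNA 3-prime processing 4 were higher and 7 lower in that step. Of 13 transcription regulators 6 were higher and 6 lower. Lsm10 averaged 7.79 ± 2.11 CPM in PreL and 3.93 ± 1.14 CPM in LZ. A link to the members was not tested.

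Lsm11, a protein of the U7 snRNP, was not called in LZ against PreL and fell to 2.76 ± 1.34 CPM in PD, against 23.1 ± 1.17 CPM in LZ (-3.05 ± 0.26, adjusted p = 1.04e-08). Its partner Lsm10 went the other way, with 24.2 ± 4.16 CPM in PD and 3.93 ± 1.14 CPM in LZ (2.62 ± 0.24, adjusted p = 2.63e-08). Slbp had 245.9 ± 23.1 CPM in LZ, 181.6 ± 7.72 CPM in PD and 98.2 ± 2.42 CPM in RS (-0.44 ± 0.10 in PD against LZ, adjusted p = 0.000764). Eri1, an exonuclease that trims histone mRNA, had 16.1 ± 3.57 CPM in PD and 106.9 ± 8.18 CPM in LZ (-2.73 ± 0.15, adjusted p = 3.82e-11), and Upf1, a helicase in histone mRNA decay, 60.2 ± 15.2 CPM in RS and 398 ± 17.8 CPM in PD (-2.72 ± 0.16, adjusted p = 7.07e-10). Hinfp, which acts on H4 genes, fell to 7.34 ± 0.62 CPM in PD, against 61.7 ± 1.81 CPM in LZ (-3.07 ± 0.18, adjusted p = 5.45e-11).

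**Figure D5:**
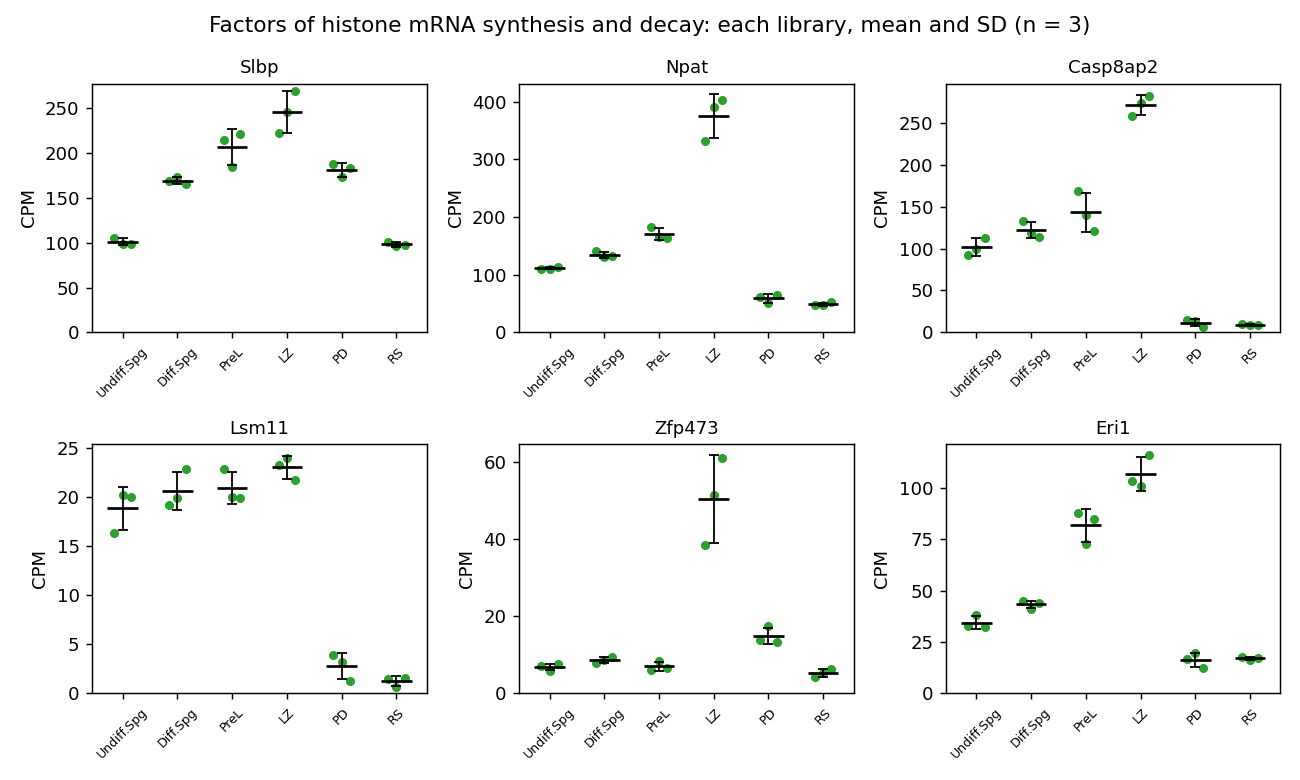
CPM in each of the 3 libraries of a group (points), with the mean (thick line) and SD (bar), for 6 genes of histone mRNA transcription, processing and decay, in the order of the stages. Npat averages 59.1 CPM in PD and 375.5 CPM in LZ, and Slbp 181.6 CPM in PD and 245.9 CPM in LZ; each panel has its own scale, from 0.

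By list, 12 of 17 genes of histone mRNA 3-prime processing were lower and 3 higher in PD against LZ (40.8% and 42.1% of all genes). Of 13 transcription regulators of these genes 9 were lower and 1 higher, and of 9 tested decay genes 5 were lower and 3 higher. Of 26 genes of DNA replication and S phase 21 were lower and 3 higher in this step, with a median log2 fold change of -3.76. In LZ against PreL the S phase list had 6 higher and 10 lower of 26, the processing list 4 higher and 7 lower of 17, and the transcription list 6 higher and 6 lower of 13 (24.3% of all genes higher and 23.2% lower). The shares of the S phase and processing lists that were higher lay near that of all genes. In Diff.Spg against Undiff.Spg 18 of the 26 S phase genes were higher and 1 was lower (20.4% and 23% of all genes).

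Of 22 histone chaperone genes 8 were higher and 9 lower in PD against LZ, near the shares of all genes (42.1% and 40.8%). Asf1b, a chaperone of H3 and H4, had 99.9 ± 2.57 CPM in PD and 494 ± 90.5 CPM in LZ (-2.31 ± 0.15, adjusted p = 3.58e-10). Nasp, a chaperone of H1 and of H3 and H4, had 2024 ± 217 CPM in PD and 834.7 ± 57.5 CPM in LZ (1.28 ± 0.10, adjusted p = 1.91e-09). Chaf1a, the large subunit of the replication chaperone CAF-1, had 365.7 ± 7.66 CPM in PD and 87.6 ± 12.3 CPM in LZ (2.06 ± 0.12, adjusted p = 3.88e-11), while Chaf1b was not called (adjusted p = 0.596).

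Among histone genes outside the clusters, the linker histone genes H1f0 and H1fx also fell in PD against LZ. H1f0 had 193.6 ± 46.9 CPM in PreL, 256.5 ± 21.1 CPM in LZ and 14.7 ± 1.41 CPM in PD (0.41 ± 0.15 in LZ against PreL, adjusted p = 0.0310, and -4.12 ± 0.17 in PD against LZ, adjusted p = 9.74e-13). H1fx had 182.2 ± 36 CPM in PD and 1109 ± 417 CPM in LZ (-2.61 ± 0.27, adjusted p = 9.64e-08). H2afz, for the variant H2A.Z, was higher in PD (62.96 ± 8.38 CPM) than in LZ (20.0 ± 4.58 CPM; 1.66 ± 0.19, adjusted p = 3.23e-07), and H2afx was not called in that step (adjusted p = 0.698). H3f3a rose to 88.2 ± 3.62 CPM in PD against 36.6 ± 5.4 CPM in LZ (1.27 ± 0.17, adjusted p = 2.05e-06) and H3f3b fell to 554 ± 130 CPM in PD against 804 ± 70.5 CPM in LZ (-0.54 ± 0.16, adjusted p = 0.00568); both encode H3.3. The left-out testis genes were all higher in LZ than in PreL: Hist1h2ba stood at 10.4 ± 2.31 CPM in LZ and 1.60 ± 0.905 CPM in PreL (2.72 ± 0.38, adjusted p = 1.86e-05), Hist1h2aa at 3.20 ± 1.05 CPM in LZ and 1.20 ± 0.819 CPM in PreL (1.46 ± 0.43, adjusted p = 0.0105), and Hist1h1t at 1.89 ± 1.16 CPM in LZ and 0.202 ± 0.302 CPM in PreL (3.07 ± 0.69, adjusted p = 0.00127).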

How the data were processed

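Gene counts of 18 libraries (6 groups of 3) were used. The authors deposited whole-number read counts per Ensembl gene, not scaled. The submitters' processing notes name the build GRCm38 and the tools STAR 2.4.2a, cutadapt, DESeq2 and HTSeq, with no role for any. How reads that map to several places were counted, the strand setting and the annotation release were not given in the sources used here. No molecular identifiers were used, so floors cover counting error only.

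Symbols came from GENCODE M21 (46091 of 46603 IDs). Genes were filtered with filterByExpr, which left 18547, and counts were scaled by TMM (factors 0.669 to 1.35) and fitted with edgeR 4.0.16 in R 4.3.3 (2-sided tests by glmQLFTest after glmQLFit of all 6 groups at once), with Benjamini-Hochberg adjustment over all tested genes per step. A member was called at adjusted p under 0.05 with no fold condition. SE is the log2 fold change over the root of F. A group with no read was set at a floor of 3 reads. The code was tested on simulated data.

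Members and lists were chosen with earlier results of these data known. Named members are the 10 highest per kb, up to 5 called rises and 5 falls per step with at least 5 CPM, the 2 highest of each histone type, and those with a spliced transcript at 5 CPM or more, 12 in all. Hist1h1b, Hist1h1d, Hist1h1e, Hist1h2ag, Hist1h2an, Hist1h2bj, Hist1h4h, Hist1h4i, Hist1h4j, Hist1h4n, Hist2h4, Hist3h2ba, Hist4h4, the 10 members without reads, H1fx, Hist3h2bb-ps, Gm15444, Trim17, the full TGACGTCA and the H1 box were chosen after values were seen.

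Same-numbered libraries of replicates 1 and 2 deviated together between PreL and Diff.Spg (correlations 0.228 and 0.445) and between LZ and PreL (0.455 and 0.683). Replicate 3 (0.121 and 0.254) correlated less with its own number than with another (highest 0.193 and 0.286). The reported tests did not pair libraries, and pairing entered only as an alternative, the replicate block. The labels do not say what a number marks. Replicates differed by 2.43 to 48.4 times the counting variance, and none was a copy. Alternatives were RLE scaling, total library size, no filter, 1 CPM in 3 libraries, the replicate block, each library left out, PreL replicate 2 and LZ replicate 2 left out together, each pair fitted alone, a 2-fold condition, and DESeq2 1.42.0.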

Additional observations from a re-analysis of the deposited data

How the results depend on the processing

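Of 39 calls of a member in a step, 27 held in every alternative, 12 were lost in at least 1, and none reversed. Without the low-count filter 8 members were higher in RS against PD, 18 were lower in PD against LZ, 1 was lower in LZ against PreL, and 31 differed among the 6 groups. With the replicate block 2 members were higher in Diff.Spg against Undiff.Spg; it moved no other count by over 1.5 times, and no member call was lost with it. Libraries with equal numbers correlated at 0.02, 0.251 and 0.149 in Diff.Spg against Undiff.Spg. There replicates 2 and 3 correlated more with their own number than with another (highest -0.023 and 0.086). The values were 0.008, -0.081 and -0.072 in PD against LZ, and 0.078, -0.153 and -0.024 in RS against PD. In these last steps each lay below the highest value with another number. Low values cannot show that libraries of a number had no common source. With each pair of groups fitted alone 3 members were higher and 1 lower in Diff.Spg against Undiff.Spg, and 3 were higher in LZ against PreL. DESeq2 found 1 lower in LZ against PreL and 2 lower in RS against PD.

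Leaving out single libraries gave 1 to 4 higher and 0 to 2 lower in Diff.Spg against Undiff.Spg, 1 to 6 and 1 to 2 in PreL against Diff.Spg, 4 to 11 and 0 to 1 in LZ against PreL, 5 to 7 and 10 to 13 in PD against LZ, 4 to 5 and 3 to 5 in RS against PD, and 19 to 21 members that differ among the groups; the filter then asks for fewer libraries and keeps more members. The fewest higher in PreL against Diff.Spg (1) came without Diff.Spg replicate 1, and the most in LZ against PreL (11) without PreL replicate 3. Without PreL replicate 2 and LZ replicate 2 together, 3 members were higher in Diff.Spg against Undiff.Spg and 1 was lower in LZ against PreL.

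With the total library size the summed CPM was 13.2 in Undiff.Spg, 15.9 in Diff.Spg, 86.0 in PD and 71.8 in RS, and with RLE scaling 120 in RS; the cause of other differences was not tested. The total library size moved the median of all genes by -0.204 in LZ against PreL, -0.352 in PD against LZ and -0.137 in RS against PD, and RLE moved it by 0.138 in RS against PD. At this depth and with these counts, 45 of the 62 members were too low to test.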
